A study of Rattus norvegicus with 12 samples.

Results

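The 32 genes described here encode the enzymes of glycolysis, their glucose and lactate transporters, the regulators of glycolytic flux and a set of genes that respond to low oxygen. They were chosen by name: a probe belonged to the set if the array design files gave it 1 of 33 gene names, of which 2 (Pkm and Pkm2) stand for the same gene. The names matched 44 of 30367 probes, 42 of these 44 were kept after a filter on dim probes, and all 32 genes were among the 14376 genes tested. The data are single-colour expression arrays of total RNA from cultured cardiomyocytes of neonatal rats, named NRVCM in the labels. The 4 groups are unstretched cells on silicone membranes, which served as control, and cells under biaxial pulsatile stretch for 2 h, 6 h or 24 h, with 3 biological replicates each. The same control group serves all stretch times and its labels give no time. Duration of stretch and time in culture therefore cannot be told apart. All groups were grown in serum-containing medium on membranes of the same kind, and each array carries the RNA of 1 culture. Whether the replicates came from separate cell isolations is not stated, so p-values measure the spread between these cultures.

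Glycolysis converts glucose to pyruvate in the cytosol, and lactate dehydrogenase can turn pyruvate into lactate when mitochondrial oxidation lags. Several steps are catalysed by isoenzymes from different genes, with forms enriched in adult muscle or heart (Pfkm, Pgam2, Eno3, Ldhb and the insulin-responsive transporter Slc2a4) beside forms found in most tissues (Pfkp, Pgam1, Eno1, Ldha and Slc2a1). In low oxygen the transcription factor HIF-1 escapes degradation, because the prolyl hydroxylases Egln1 and Egln3, which mark its alpha subunit, need oxygen, and it then raises many glycolytic genes together with genes such as Adm and Bnip3. The newborn heart relies on glycolysis more than the adult heart, which burns mainly fatty acids.

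HIF-1 binds the core letters ACGTG or GCGTG, so promoters are shown for 4 genes that differ in how they moved: Adm, higher at every time; Slc2a1, higher at 24 h; Aldoc, lower at 6 h and 24 h; and Ldha, for which no change passed the test. Each run is the 250 bases before the RefSeq start site, 5′ to 3′ on the gene's strand, in rat build GRCr8, with every match to either core on either strand in capitals. They lie at chr1:174179950-174180199, chr5:138002272-138002521, chr10:63715294-63715543 and chr1:106507842-106508091, all on the plus strand.
Adm: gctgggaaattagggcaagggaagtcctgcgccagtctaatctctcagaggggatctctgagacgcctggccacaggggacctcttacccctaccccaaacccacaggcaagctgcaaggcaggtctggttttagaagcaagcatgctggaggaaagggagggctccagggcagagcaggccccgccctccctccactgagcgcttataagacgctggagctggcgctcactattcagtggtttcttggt
Slc2a1: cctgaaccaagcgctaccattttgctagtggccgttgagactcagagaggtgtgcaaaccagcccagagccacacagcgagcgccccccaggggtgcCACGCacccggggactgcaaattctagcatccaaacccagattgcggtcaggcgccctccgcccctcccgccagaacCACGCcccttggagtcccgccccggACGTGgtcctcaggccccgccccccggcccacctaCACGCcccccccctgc
Aldoc: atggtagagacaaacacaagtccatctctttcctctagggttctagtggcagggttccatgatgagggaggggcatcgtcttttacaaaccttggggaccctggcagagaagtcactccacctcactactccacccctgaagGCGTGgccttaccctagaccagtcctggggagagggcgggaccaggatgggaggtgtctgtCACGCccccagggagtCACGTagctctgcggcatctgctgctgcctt
Ldha: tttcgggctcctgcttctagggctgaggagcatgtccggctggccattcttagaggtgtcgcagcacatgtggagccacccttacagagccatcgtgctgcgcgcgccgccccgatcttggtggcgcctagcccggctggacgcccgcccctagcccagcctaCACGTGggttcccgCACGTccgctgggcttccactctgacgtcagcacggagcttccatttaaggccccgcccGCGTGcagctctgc
The Adm window holds 0 matches. Slc2a1 has 4, which begin 153, 76, 51 and 16 bases before the start site, and Aldoc has 3, at 108, 47 and 31 bases. Ldha has 4, of which a pair are the strands of a single CACGTG. RefSeq gave promoters for 29 of the 32 genes (not for Pgk1, Ndrg1 and Slc2a4), and 16 of the 29 (55.2%) held a core, against 54.6% of the 10467 tested genes with a promoter and 36.7% of all 33469 promoters of that length in the table. By direction at 24 h, a core was present in 3 of 6 genes that were higher, in 5 of 8 that were lower and in 8 of 15 that were not called. These matches describe letters only.

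Over the time course, the genes moved in both directions. A gene is called here when limma's Benjamini-Hochberg adjusted p, over all 14376 genes, is below 0.05, and changes are given on the log2 scale of the signal relative to each array's 75th percentile. At 2 h, 5 of the 32 genes were called (4 higher, 1 lower), where 9.20% of all genes were called (3.10% higher and 6.10% lower). At 6 h there were 5 (3 higher, 2 lower), against a background of 16.8% (5.06% higher, 11.7% lower). At 24 h there were 16 (6 higher, 10 lower), or 50% of the genes, against 47.9% of all genes (16.2% higher, 31.7% lower). The share called at 24 h therefore lay close to that of all genes. The median change of the 32 genes was 0.08, -0.05 and -0.08 at 2, 6 and 24 h, and that of all genes was -0.01, -0.05 and -0.08. Signals of stretched and control arrays did not overlap for 13, 12 and 17 of the 32 genes at the 3 times, where 28.6%, 39.4% and 58.9% of all genes did not overlap. A moderated F test over the 4 groups called 19 of 32 genes, against 52.8% of all genes.

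**Figure D1:**
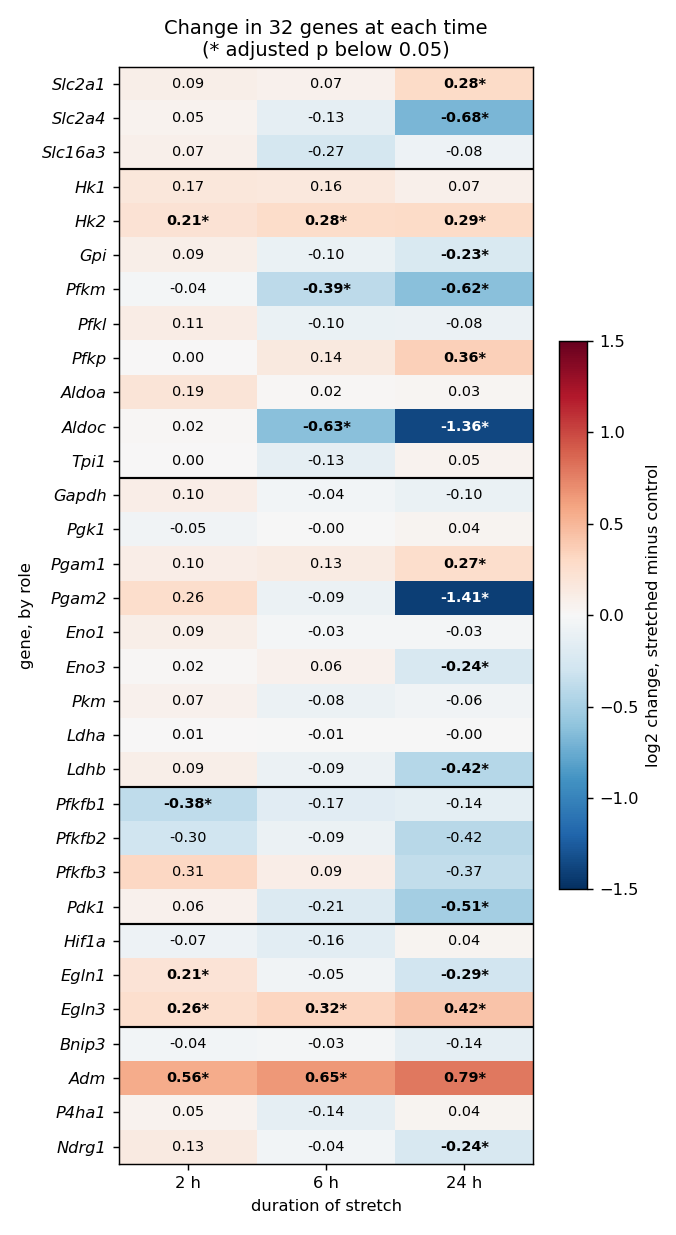
Log2 change of signal, stretched minus control, for each of the 32 genes (rows, grouped by role with black lines) at 2, 6 and 24 h (columns), with 3 arrays per group and asterisks at adjusted p below 0.05. Adm, Egln3 and Hk2 were higher at each time, though Hk2 was not called at 2 h or 6 h with normexp background correction. Pgam2 and Aldoc had the most negative changes at 24 h, -1.41 and -1.36. With arrays scaled to spike-in controls, the values of Pfkm at 6 h and of Gpi, Eno3, Ldhb, Egln1 and Ndrg1 at 24 h turn positive.

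The arrays lay on 2 slides, each scanned on its own day. All control and 2 h arrays and 2 of the 6 h arrays were on slide 1, and the 24 h arrays lay on slide 2 with 6 h replicate 3, so that only the 6 h group ties 24 h to control. With slide as a block in the model, 8 of the 16 calls at 24 h remained: Adm, Egln3 and Pfkp higher, and Pgam2, Aldoc, Slc2a4, Pfkm and Ldhb lower. The other 8 (Slc2a1, Hk2, Pgam1, Gpi, Eno3, Pdk1, Egln1 and Ndrg1) kept their direction in that fit with adjusted p between 0.052 and 0.211. Over all genes, 6888 were called at 24 h and 2045 with the slide as a block.

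The scale between arrays also bears on every direction. Scaling to the spike-in controls moved the median change of all genes at 2, 6 and 24 h to 0.17, 0.44 and 0.35, and scaling to the array median moved it at 24 h to 0.11. Each of these scalings shifts every gene of an array alike, so changes relative to that median are by construction the same under all 3. At 24 h these relative changes were, for example, -1.33 for Pgam2, -1.28 for Aldoc and 0.87 for Adm. The split of calls at 24 h was 6 higher and 10 lower with the 75th percentile. It was 12 and 6 with the array median and 12 and 2 with the spike-ins. All genes called at 24 h were 6888, 7781 and 5461 with these 3 scalings. At 6 h the split was 3 and 2 with the 75th percentile, 6 and 2 with the array median and 16 and 0 with the spike-ins. All genes called at 6 h were 2408, 2816 and 7221. Spike-in scaling turned the sign of 5 genes called lower at 24 h (Gpi, Eno3, Ldhb, Egln1 and Ndrg1) and of Pfkm at 6 h.

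Markers of cell types were measured in the same RNA. All 12 cardiomyocyte markers, among them Tnnt2, Myh6 and Actc1, were above background on every array. Their summed signal, in units of the array's 75th percentile, was 829 to 901 at 24 h and 986 to 1070 in control, with 9 of 12 lower and 1 higher at 24 h, where 31.7% of all genes were lower and 16.2% higher. With the slide as a block, 1 of these 12 was lower and 0 higher, and the median change was -0.34 with the 75th percentile and 0.09 with spike-ins. The macrophage and leukocyte markers summed to 5.58 to 6.5 at 24 h and 15.7 to 15.8 in control, with 7 of 7 tested lower (6 with the slide as a block) and none of these 7 at 0. The fibroblast markers summed to 123 to 142 at 24 h and 170 to 182 in control (7 of 9 lower), the endothelial markers to 2.28 to 2.62 and 3.12 to 3.32 (5 of 7 lower, 1 higher), and the smooth muscle and pericyte markers to 29.9 to 31.5 and 35.7 to 36 (5 of 7 lower, 1 higher). With the slide as a block, 4 of the fibroblast, 3 of the endothelial and 3 of the smooth muscle markers were lower, and 1 endothelial marker was higher. Their median changes were -0.34, -0.53 and -0.44 with the 75th percentile, and 0.09, -0.10 and -0.01 with spike-ins. Only 1 of 6 red cell markers was tested, with a sum of 0.188 to 0.204 at 24 h and 0.158 to 0.178 in control. In bulk RNA, fewer cells of a type and less RNA per cell cannot be told apart, and the part of cell composition in the changes at 24 h was not tested.

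Among the transporters, the insulin-responsive glucose transporter Slc2a4 was lower at 24 h and the ubiquitous transporter Slc2a1 was higher. The Slc2a4 probe lies at chr10:56786861-56786920 in build rn4. Its log2 signal was -1.93, -1.97 and -2.02 in control, -1.89, -1.88 and -1.99 at 2 h, -2.18, -1.94 and -2.20 at 6 h, and -2.56, -2.69 and -2.71 at 24 h. The 24 h arrays were all below those of the other groups. The change at 24 h was -0.68 ± 0.07 (SE), a signal 1.60-fold lower than in control (adjusted p = 3.84e-05), with -0.54 (adjusted p = 0.0208) with the slide as a block and -0.25 (adjusted p = 0.284) with spike-in scaling. Within slide 2, the 24 h arrays lay 0.46 below the single 6 h array, a difference that already enters the slide-block value. Slc2a1 was higher at 24 h by 0.28 ± 0.06 (adjusted p = 0.00213), and by 0.22 (adjusted p = 0.192) with the slide as a block. The lactate exporter Slc16a3 had changes of 0.07, -0.27 and -0.08 at the 3 times, none called.

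Among the 9 enzymes from hexokinase to triosephosphate isomerase, 2 were higher and 3 lower at 24 h, against 16.2% and 31.7% of all genes. Pfkm, the muscle form of phosphofructokinase, which commits sugar to glycolysis, was lower from 6 h. Its probe lies at chr7:136845936-136845995 (rn4), and its log2 signal was 2.48, 2.60 and 2.51 in control, 2.58, 2.48 and 2.43 at 2 h, 2.15, 2.11 and 2.15 at 6 h, and 1.91, 1.86 and 1.95 at 24 h. All 6 h and 24 h arrays were below all control and 2 h arrays, and the 24 h arrays below the 6 h arrays. The change was -0.39 ± 0.05 at 6 h (adjusted p = 0.00124) and -0.62 ± 0.05 at 24 h (1.54-fold lower, adjusted p = 7.28e-06). With the slide as a block the change at 24 h was -0.64 (adjusted p = 0.00334), while spike-in scaling gave 0.10 at 6 h and -0.20 at 24 h (adjusted p = 0.651 and 0.41).

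The platelet form Pfkp was not called at 2 h or 6 h and was higher at 24 h, by 0.36 ± 0.05 (adjusted p = 0.000147, and 0.0117 with the slide as a block). The liver form Pfkl, with -0.08 at 24 h, was not called. Hexokinase isoform Hk2, which traps glucose in insulin-sensitive tissue, was higher at all 3 times, by 0.21, 0.28 and 0.29 (adjusted p = 0.0323, 0.0072 and 0.00141, the last 0.0911 with the slide as a block). The 2 h call was lost without control replicate 1 or 2, or without 2 h replicate 1, 2 or 3. With normexp background correction, limma gave Hk2 changes of 0.13 at 2 h and 0.20 at 6 h, neither called (adjusted p = 0.24 and 0.0559). With the series matrix the 2 h change was not called either (adjusted p = 0.157). The isoform Hk1, found in most tissues, had changes of 0.17, 0.16 and 0.07, none of them called. The F test over the 4 groups did call Hk1 (adjusted p = 0.0434, and 0.0828 with the slide as a block). With the array median as scale, limma called Hk1 at all 3 times (adjusted p = 0.0344, 0.0083 and 0.00147). With quantile normalization it was not called (adjusted p = 0.2, 0.069 and 0.268). Gpi, the glucose phosphate isomerase, was lower at 24 h by 0.23 ± 0.05 (adjusted p = 0.00396), but was 0.20 higher with spike-in scaling, uncalled. Tpi1 did not pass the test at any time.

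Aldoc, the aldolase form best known from brain, was the enzyme of this stretch with the largest change. The probe used is at chr10:64308833-64308892 (rn4). Log2 signal was 4.15, 3.95 and 4.07 in control, 4.09, 4.05 and 4.09 at 2 h, 3.35, 3.40 and 3.53 at 6 h, and 2.64, 2.84 and 2.61 at 24 h. The 6 h and 24 h arrays did not overlap those of control or 2 h, nor each other. Changes were -0.63 ± 0.08 at 6 h (adjusted p = 0.000968) and -1.36 ± 0.08 at 24 h, 2.58-fold lower than in control (adjusted p = 6.98e-07). At 24 h the slide block gave -1.53 (adjusted p = 0.000292) and the spike-ins -0.94 (adjusted p = 4.42e-05), and at 6 h the spike-ins gave -0.14 (adjusted p = 0.503). A second, dimmer probe for the same transcript gave -0.78 at 6 h and -1.60 at 24 h. Aldoa, the muscle and ubiquitous aldolase, had changes of 0.19, 0.02 and 0.03, none of them called. The F test over the 4 groups did call Aldoa (adjusted p = 0.0433, and 0.122 with the slide as a block).

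**Figure D2:**
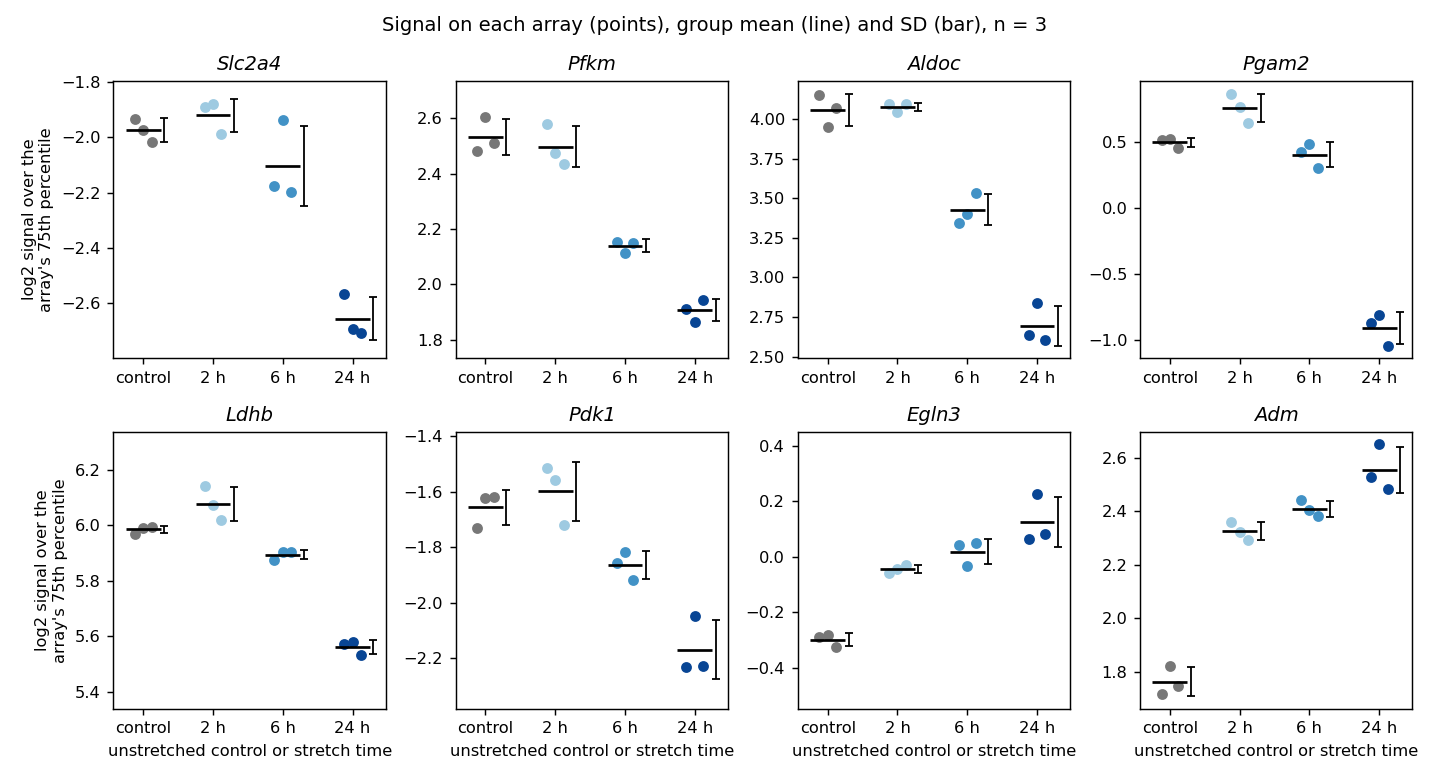
Log2 signal relative to each array's 75th percentile (vertical axis, scale differing by gene) on each of 12 arrays for the 8 genes with the largest changes, in control and at 2, 6 and 24 h of stretch; points are arrays, lines group means and bars SD of 3 arrays. The 24 h arrays lie below control in Slc2a4, Pfkm, Aldoc, Pgam2, Ldhb and Pdk1, and above it in Egln3 and Adm; with spike-in scaling the Ldhb change at 24 h is 0.01.

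From Gapdh to lactate dehydrogenase, 1 of 9 enzymes was higher at 24 h and 3 were lower, against 16.2% and 31.7% of all genes. Pgam2, the muscle phosphoglycerate mutase, had the most negative change at 24 h of the 32 genes. Its probe is at chr14:86466146-86466205 (rn4). The log2 signal was 0.51, 0.52 and 0.46 in control, 0.86, 0.77 and 0.64 at 2 h, 0.42, 0.49 and 0.30 at 6 h, and -0.87, -0.82 and -1.04 at 24 h. The 2 h arrays were above control and the 24 h arrays below all others. At 24 h the change was -1.41 ± 0.08, a 2.66-fold lower signal (adjusted p = 5.87e-07), with -1.26 (adjusted p = 0.000622) with the slide as a block and -0.98 (adjusted p = 1.69e-05) with spike-ins. At 2 h the change was 0.26 ± 0.08 (adjusted p = 0.0559). Within slide 2, the 24 h arrays lay 1.22 below the single 6 h array, a difference that already enters the slide-block value.

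Ldhb, the heart subunit of lactate dehydrogenase, gave log2 signals of 5.97, 5.99 and 5.99 in control, 6.14, 6.07 and 6.02 at 2 h, 5.88, 5.90 and 5.90 at 6 h, and 5.57, 5.58 and 5.53 at 24 h. The 24 h arrays were below all others. The probe spans chr4:180061921-180063949 (rn4) in the design file. The change at 24 h was -0.42 ± 0.04 (1.34-fold lower, adjusted p = 2.52e-05), or -0.44 (adjusted p = 0.00791) with the slide as a block, and 0.01 (adjusted p = 0.981) with spike-in scaling. Ldha, the muscle subunit and a HIF-1 target, had changes of 0.01, -0.01 and 0.00 with standard errors of 0.04, none called.

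Pgam1, the ubiquitous mutase, was higher at 24 h by 0.27 ± 0.04 (adjusted p = 0.000414, and 0.0965 with the slide as a block). The design file places its probe on chromosome 10 of rn4, whereas RefSeq puts the Pgam1 promoter on chromosome 1 of GRCr8, and whether a near-identical copy adds to its signal was not tested. Eno3, the muscle enolase, was lower by 0.24 ± 0.08 at 24 h (adjusted p = 0.0337), a call lost without control replicate 1 or 3 or 24 h replicate 2 or 3, and its sign was turned by spike-in scaling. Gapdh, Pgk1, Eno1 and Pkm, with 24 h changes of -0.10, 0.04, -0.03 and -0.06, did not pass the test. For Pkm, whose probes carry the older name Pkm2, the probes disagreed: a dimmer probe changed by -0.40 at 24 h (adjusted p = 0.000646) while the brightest changed by -0.06.

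The balance of isoforms was examined on each array as the log2 signal of the muscle, heart or insulin-responsive form minus that of the ubiquitous form, so array scaling cancels. Since probes differ in brightness, only its change against control is given. For each of 6 pairs, an exact permutation test over all 369600 assignments of arrays to groups was run on the F statistic, with p adjusted over the 6 pairs.
The difference Pgam2 minus Pgam1 was 0.16 at 2 h, -0.22 at 6 h and -1.68 at 24 h relative to control (exact p = 6.49e-05, the smallest these permutations allow, adjusted p = 0.00039). For Pfkm minus Pfkp it was -0.04, -0.54 and -0.98 (adjusted exact permutation p = 0.00136), and for Slc2a4 minus Slc2a1 -0.04, -0.20 and -0.97 (adjusted exact permutation p = 0.00282). In these 3 pairs the 24 h arrays lay 0.91 or more below the control mean for Pfkm, 1.54 or more for Pgam2 and 0.86 or more for Slc2a4. Ldhb minus Ldha reached -0.42 at 24 h (adjusted exact permutation p = 0.00169). Eno3 minus Eno1 was -0.20 (0.0189 adjusted, exact permutation). Hk2 minus Hk1 was the only pair with a positive value at 24 h, 0.21 (adjusted exact permutation p = 0.0206, and 0.384 with normexp background correction). With the slide as a block the 24 h values were -1.47, -1.07, -0.76, -0.45, -0.32 and 0.13, in the order Pgam2, Pfkm, Slc2a4, Ldhb, Eno3 and Hk2. The permutations above exchange arrays between slides. In an exact permutation test within slides (2240 assignments, smallest possible p = 0.000893), 3 of the 6 pairs passed: the adjusted p was 0.0107 for the Pgam2 pair, 0.0188 for the Pfkm pair and 0.0429 for the Ldhb pair, against 0.106 for the Slc2a4 pair, 0.106 for the Eno3 pair and 0.529 for the Hk2 pair. This test was added after the data were seen.

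**Figure D3:**
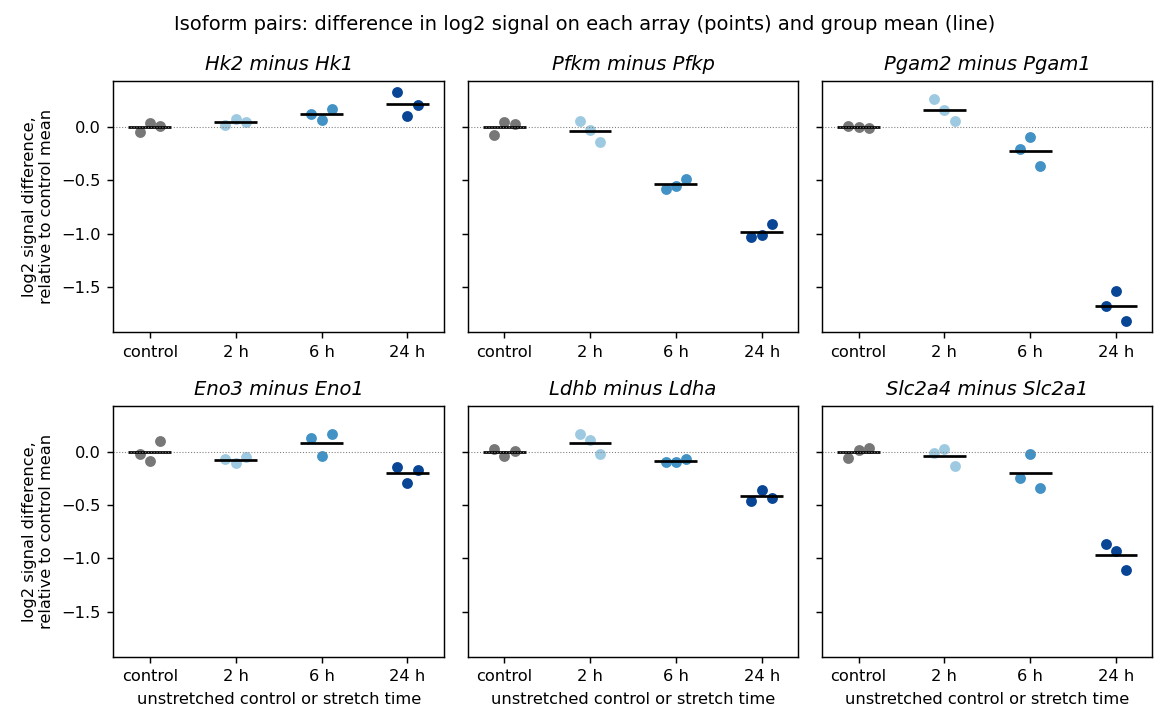
Difference in log2 signal between the isoforms of each pair on each array, relative to the control mean (vertical axis), in control and at 2, 6 and 24 h; points are arrays and lines group means of 3. Pgam2 minus Pgam1, Pfkm minus Pfkp and Slc2a4 minus Slc2a1 lie 0.86 or more below the control mean on every 24 h array, while Hk2 minus Hk1 lies above it at 24 h.

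Among the 4 regulators of flux, 1 was called at 24 h, where 47.9% of all genes were called. Pdk1, the kinase that shuts off pyruvate dehydrogenase and a known HIF-1 target, had log2 signals of -1.73, -1.62 and -1.62 in control, -1.52, -1.56 and -1.72 at 2 h, -1.86, -1.82 and -1.92 at 6 h, and -2.23, -2.05 and -2.23 at 24 h. The 6 h and 24 h arrays were below all control arrays. Its probe is at chr3:54302974-54303274 (rn4). The change at 24 h was -0.51 ± 0.07 (1.43-fold lower, adjusted p = 0.000196), -0.43 with the slide as a block (adjusted p = 0.052) and -0.08 with spike-ins (adjusted p = 0.736). The bifunctional enzymes Pfkfb1, Pfkfb2 and Pfkfb3 set the level of the main activator of phosphofructokinase. Pfkfb1 was lower at 2 h by 0.38 ± 0.08 (adjusted p = 0.015), a call lost without control replicate 2 or 3. Pfkfb2 and Pfkfb3, which were dim and above background on 10 and 11 of 12 arrays, had changes of -0.42 and -0.37 at 24 h, uncalled, and the 2 Pfkfb2 probes differed in sign at 24 h (-0.42 and 0.21).

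Of the 3 genes of oxygen sensing, the prolyl hydroxylase Egln3, itself induced by HIF-1, was higher at every time. Its log2 signal was -0.29, -0.28 and -0.33 in control, -0.06, -0.04 and -0.03 at 2 h, 0.04, -0.03 and 0.05 at 6 h, and 0.06, 0.23 and 0.08 at 24 h (probe at chr6:74451958-74452017, rn4). All 9 stretched arrays were above all control arrays. The changes were 0.26, 0.32 and 0.42 (each ± 0.05; adjusted p = 0.0133, 0.00297 and 8.55e-05), the last 1.34-fold, and 0.38 (adjusted p = 0.028) with the slide as a block. Egln1, the main hydroxylase, was higher at 2 h by 0.21 ± 0.06 (adjusted p = 0.0497) and lower at 24 h by 0.29 ± 0.06 (adjusted p = 0.00235, and 0.132 with the slide as a block). The 2 h call was lost in all 12 fits that left out a single array, and spike-in scaling made the 24 h change 0.14. Hif1a, the oxygen-regulated subunit, had changes of -0.07, -0.16 and 0.04 (each ± 0.22), none called. Its standard error was above the 0.05 of Egln3, so smaller changes could go uncalled. For Hif1a, control replicate 1 read -2.60 and the other control arrays -3.49 and -3.60.

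Adm encodes adrenomedullin, a vasodilator peptide, and had the largest rise among the 32 genes. Log2 signal was 1.72, 1.82 and 1.75 in control, 2.36, 2.32 and 2.29 at 2 h, 2.44, 2.40 and 2.38 at 6 h, and 2.53, 2.65 and 2.48 at 24 h (probe at chr1:168382310-168382369, rn4). Every stretched array was above every control array. The changes were 0.56, 0.65 and 0.79, each ± 0.05 (adjusted p = 0.000609, 0.000346 and 1.98e-06), or 1.48-fold, 1.56-fold and 1.73-fold. The slide block gave 0.83 at 24 h (adjusted p = 0.0011), and spike-in scaling gave 0.74, 1.13 and 1.22. Most of the rise was present at 2 h, and the 24 h signal was 0.23 ± 0.05 above that at 2 h (adjusted p = 0.00485, and 0.109 with the slide as a block). Bnip3, a mitochondrial HIF-1 target, P4ha1, a collagen hydroxylase subunit, and Ndrg1, a stress-responsive gene, changed by -0.14, 0.04 and -0.24 at 24 h, of which only Ndrg1 passed (adjusted p = 0.00838), with 0.18 under spike-in scaling.

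The stretch times were also compared with each other. Between 24 h and 6 h, 12 of 32 genes were called (3 higher, 9 lower), against 25.0% of all genes (9.57% higher, 15.5% lower). Between 6 h and 2 h there were 7, all lower on the 75th percentile scale (Gpi, Pfkm, Aldoc, Pgam2, Ldhb, Pdk1 and Egln1), against 10.5% (3.68% higher and 6.80% lower). Between 24 h and 2 h there were 19 (6 higher, 13 lower), against 48.2% (18.0% higher, 30.2% lower). With the slide as a block, 5, 2 and 9 of these calls remained, where 1101, 599 and 1805 of all genes were called. With the array median as scale the 24 h to 6 h split was 6 higher and 5 lower, and with spike-ins 0 and 3. All genes called were 4540 and 1059. The 6 h to 2 h split was 2 higher and 3 lower with the array median, 2 and 4 with quantile normalization and 0 and 0 with spike-ins. All genes called were 1502, 1569 and 671. The 24 h to 2 h split was 10 higher and 9 lower with the array median, 9 and 9 with quantile normalization and 1 and 2 with spike-ins. All genes called were 7679, 6924 and 2654. The 6 h to 2 h count became 2 without 2 h replicate 1, 3 without 6 h replicate 1, 4 without 6 h replicate 2 and 2 without 6 h replicate 3, and the 24 h to 6 h count became 7 without 6 h replicate 1.
The count at 2 h against control fell to 3 without control replicate 1 or 3 or without 2 h replicate 1 or 2, and to 2 without control replicate 2.

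**Figure D4:**
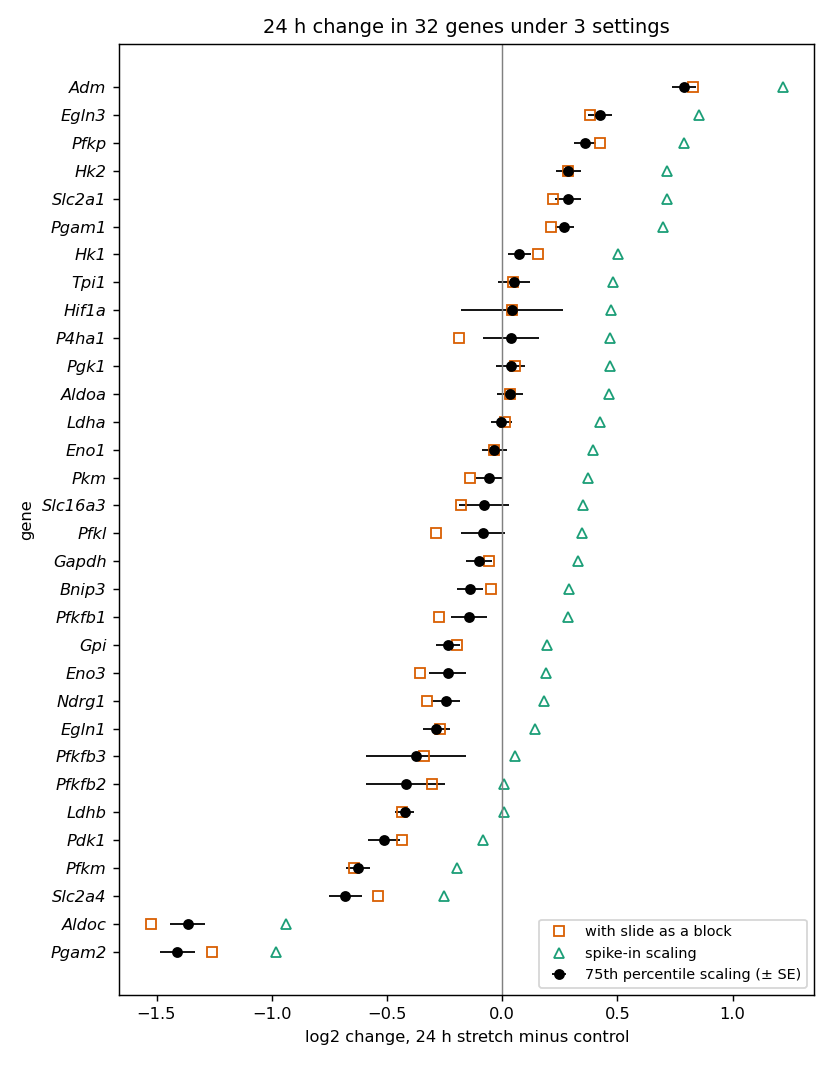
Log2 change at 24 h minus control for the 32 genes (rows, ordered by change) with 75th percentile scaling (black points ± SE, 3 arrays per group), with slide as a block (squares) and with spike-in scaling (triangles). Of the 16 genes called at 24 h, Adm, Egln3, Pfkp, Slc2a1, Hk2 and Pgam1 stay to the right under all 3. Pgam2, Aldoc, Slc2a4, Pfkm and Pdk1 stay to the left under all 3. Gpi, Eno3, Ldhb, Egln1 and Ndrg1 lie to the right under spike-in scaling.

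Other genes of these pathways, from lists of related names, were read against the same background at 24 h (47.9% called). Of 18 tested genes for other glycolytic isoforms and side steps, 2 were higher and 6 lower at 24 h (1 and 3 with the slide as a block), with a list median of -0.20 beside -0.08 for all genes. Hk3, the hexokinase of white blood cells, had the largest change (-1.45 ± 0.08, adjusted p = 6.96e-07, and -1.42 with the slide as a block). A link between its change and that of the macrophage markers given above was not tested. Tigar, a phosphatase that opposes glycolysis, was higher by 0.49 ± 0.06 (adjusted p = 0.000101), and Ldhd, a D-lactate dehydrogenase, was lower by 0.53 ± 0.07 (adjusted p = 0.000164). Pfkfb4, above background on 2 of 3 arrays at 6 h, was lower at 6 h by 0.59 ± 0.16 (adjusted p = 0.0325, and 0.0704 with the slide as a block), with a spike-in value of -0.10. In pyruvate entry and monocarboxylate transport, 2 of 16 were higher and 6 lower at 24 h (0 and 3 with the slide as a block), among them the transporter Slc16a7 (-0.68 ± 0.08), the pyruvate dehydrogenase kinases Pdk2 (-0.54 ± 0.07) and Pdk3 (-0.22 ± 0.04, against 0.21 with spike-ins), and the phosphatase Pdp2 (0.44 ± 0.09, adjusted p = 0.14 with the slide as a block).

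For glycogen synthesis and breakdown, 1 of 15 genes was higher and 8 were lower at 24 h, or 0 and 3 with the slide as a block (list median -0.18, and -0.10 with the block). These included Phkb, a subunit of phosphorylase kinase, Pygb, a glycogen phosphorylase, and Phka1, another phosphorylase kinase subunit, with changes of -0.68, -0.62 and -0.43, the last with an adjusted p of 0.237 in the fit with the block. In the pentose phosphate pathway, 3 of 7 were higher and 1 lower (1 and 0 with the slide as a block), among them Rpia and Rpe, which interconvert pentose phosphates, higher by 0.25 and 0.18 (adjusted p = 0.0537 and 0.448 with the block). H6pd, an enzyme of the endoplasmic reticulum, was lower at each time (-0.39, -0.49 and -0.37), with a spike-in value of 0.06 and an adjusted p of 0.101 with the block at 24 h. Of 12 other HIF pathway components, 3 were higher and 2 lower at 24 h, and 1 and 0 with the slide as a block. Arnt2 changed by -0.86 ± 0.15 and Epas1, the HIF-2 alpha subunit, by -0.47 ± 0.13, against -0.58 (adjusted p = 0.179) and -0.36 (adjusted p = 0.349) with the block. Arnt, the partner of HIF-1 alpha, was lower at 2 h by 0.46 ± 0.11 (adjusted p = 0.0284), or by 0.28 with spike-ins. It was dim, above background on 2 of 3 arrays at 2 h. Bmal1, a related clock factor, was higher at 6 h by 0.41 ± 0.06 (adjusted p = 0.00127). Of 29 other hypoxia-response targets, 4 were higher and 10 lower at 24 h (1 and 4 with the slide as a block), with Ppfia4, Car9, Ak4 and Stc2 at -0.88, -0.67, -0.67 and -0.60. The calls of Car9 and Ak4 were lost with the block (adjusted p = 0.214 and 0.133). Spike-in scaling moved the medians of these 6 lists at 24 h to between 0.23 and 0.61, beside 0.35 for all genes.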

How the data were processed

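Total RNA from 12 cultures was hybridised to single-colour Agilent rat arrays, and images were read with Agilent Feature Extraction, version 11.0.1.1 per the file headers and 10.7.3.1 per the submitters' processing notes. Per the file headers, the deposited processed intensity is linear, has the background taken off and spatial trends removed array by array, and is unscaled between arrays. Mean signal and local background are unsubtracted intensity values per the file headers. The flags that mark a spot are other values of 0 or 1, as deposited, and probes carry rn4 positions. The deposited series matrix holds an intensity for 28902 probes, and how it was scaled is not stated, so it served as an alternative.

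Outlier spots (224 to 359 of 58717 per array) were left out. Spots well above background made up 64.7% to 70.6% of an array, and 0 were saturated. The 75th percentile of each array's log2 signal was subtracted, spots of a probe were averaged, and 18997 of 30367 probes, well above background on all 3 arrays of a group, were kept. The brightest probe stood for each of 14376 genes. Probes were named by accession (18005), symbol (2668), synonym (547) or the name in the file (4963), while 4184 had none.

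One limma 3.58.1 model in R 4.3.3 was fitted to all arrays, with two-sided tests, and checked on simulated data. Errors are standard errors, n = 3. Alternatives covered scaling (array median, quantile, spike-ins), normexp with offset 50, the series matrix, no filter, every probe, 2-group fits, slide as a block, slide 1 only, a replicate block and leaving out each array. Promoters came from RefSeq GRCr8, read with Python 3.11.15, and both strands were searched. The 32 genes and the other lists were chosen with earlier results of these data known. Values in every sample are given for genes called by the F test with a change against control of at least 0.4 at any time, and up to 4 called genes with the largest change are named from each other list, except for some genes that are not reported here.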

Additional observations from a re-analysis of the deposited data

Results flagged for a closer look

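The change against control differed between 24 h and 2 h of stretch for 19 of the 32 genes, by limma's test of 24 h against 2 h in the fit over all arrays. Both changes share the control arrays, which cancel in this difference, and 48.2% of all genes passed the same test. With the array median as scale the split was 10 higher and 9 lower, in place of 6 and 13, and 7679 of all genes were called.

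For 13 genes the difference was negative: Pgam2 -1.67, Aldoc -1.39, Slc2a4 -0.73, Pfkfb3 -0.69, Pfkm -0.59, Pdk1 -0.57, Ldhb -0.52, Egln1 -0.49, Ndrg1 -0.38, Gpi -0.33, Eno3 -0.25, Gapdh -0.19 and Aldoa -0.16. Adjusted p ranged from 1.79e-07 for Pgam2 to 0.0391 for Aldoa. Pfkfb3, above background on 2 of 3 arrays at 24 h, gave -0.30 with normexp and -0.09 with the series matrix, neither called, and leaving out 1 array gave -0.86 to -0.46, with the call lost without 2 h replicate 2 or 24 h replicate 2. Pgam2, for example, had a change of -1.41 at 24 h and 0.26 at 2 h, and Egln1 one of -0.29 at 24 h and 0.21 at 2 h; the 2 h change of Pgam2 was not called.

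For 6 genes it was positive: Pfkp 0.36, Pfkfb1 0.24, Adm 0.23, Slc2a1 0.19, Pgam1 0.17 and Egln3 0.17. Adjusted p ranged from 0.000165 for Pfkp to 0.0284 for Pfkfb1. Pfkfb1 had a change of -0.14 at 24 h and -0.38 at 2 h, so its positive difference is a smaller decrease at the later time.

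The 24 h arrays lay on slide 2 and the 2 h arrays on slide 1. With the slide as a block, 9 of the 19 differences passed the test: those of Pfkp, Slc2a4, Pfkm, Aldoc, Pgam2, Ldhb, Pdk1, Egln1 and Ndrg1. Over all genes, 1805 passed in that fit.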

How the results depend on the processing

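Of the 5 genes called at 2 h, the count became 8 with the array median, 1 with spike-ins, and 3 without the filter, in a fit of the 2 groups compared or on slide 1 only. The 6 h count of 5 became 8 with the array median and 16 with spike-ins. Over all genes, the array median and spike-ins gave 1261 and 180 calls at 2 h, and 2816 and 7221 at 6 h. The 24 h count of 16 became 8 with the slide as a block, where 2045 of all genes were called. The 6 h against 2 h count of 7 became 0 with spike-ins (where limma called 671 of all genes and 4 of the 32 had an unadjusted p under 0.05), 3 with normexp, and 2 without the filter, in a fit of the 2 groups, with the slide as a block or on slide 1 only. The 24 h against 6 h count of 12 became 3 with spike-ins and 5 with the slide as a block. That of 19 for 24 h against 2 h became 3 and 9. Over all genes, spike-ins and the block gave 1059 and 1101 calls for the former, and 2654 and 1805 for the latter. The F test count of 19 became 12 with spike-ins and 11 with the slide as a block. Over all genes, the F test called 7597 in the main fit and 2798 with the block. The cause was not tested. All-gene counts are not given for normexp, the unfiltered fit, 2-group fits, slide 1 only, the replicate block or fits without 1 array. Counts from those fits therefore have no background beside them. Leaving out 1 array gave 2 to 5 genes at 2 h, 2 to 8 for 6 h against 2 h and 7 to 13 for 24 h against 6 h.

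Spike-in scaling turned 13 signs. Against control these were Gpi 0.195, Eno3 0.192, Ndrg1 0.183, Egln1 0.143 and Ldhb 0.006 at 24 h and Pfkm 0.096 at 6 h. For 6 h against 2 h they were Ldhb 0.130, Gpi 0.125, Egln1 0.056 and Pdk1 0.047, and for 24 h against 2 h Aldoa 0.096, Gapdh 0.060 and Eno3 0.001. Spike-in scaling shifts every gene of an array alike. Of the 64 called changes, 18 stayed past the threshold with spike-ins. With 0 signs turned, 62 stayed with every kept probe tested, 54 with quantile normalization, 52 with the series matrix and 52 without the filter. Likewise, 49 stayed in 2-group fits, 48 with the array median, 47 with normexp and 33 with the slide as a block. All 6 isoform pairs passed in the main test and with the series matrix, 5 passed with normexp, and 3 passed with the slide as a block, a test added after the data were seen.

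Replicate numbers did not pair the arrays: same-number correlations of the deviations from group means ran from -0.108 to 0.103 over 18 pairs, against -0.144 to 0.172 over 36 others. With the replicate block the counts were 4 at 2 h, 5 at 6 h, 16 at 24 h, 7 for 6 h against 2 h, 11 for 24 h against 6 h, 17 for 24 h against 2 h, 18 by F test and 6 isoform pairs. Precision is limited by 3 arrays per group.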
